A study of Mus musculus with 7 samples.

Results

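The genes described here are Slc7a11, Gclc, Gclm, Hmox1, Nqo1, Txnrd1, Srxn1, Nfe2l2, Mt1 and Mt2, which serve cystine import, glutathione synthesis, the NRF2 response and metal binding. They are 10 of the 12393 genes named on the array and are covered by 17 of its 20380 single-gene probe sets. A probe set belonged to a gene when the annotation gave it that symbol and no other, and of several probe sets the brightest, by mean log2 value, stands for the gene. The genes were chosen by symbol, with earlier results of these data known, and their probe sets were selected on the mean log2 value of the same arrays. The values below therefore describe these arrays and are not independent evidence.

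The arrays held RNA of glioma cells from mouse brain. There were 3 null arrays (Ptprd-/-p16-/-), 2 heterozygous arrays (Ptprd+/-p16-/-) and 2 wild-type arrays (Ptprd+/+p16-/-), so every mouse, the wild type of Ptprd included, lacked p16, which restrains the cell cycle. Ptprd encodes a receptor-type protein tyrosine phosphatase. Tumours had been started in mice of a mixed C57/BL6 and FVB/N background by cerebral injection of RCAS PDGFB GFP on postnatal days 1 to 3. RCAS is an avian retroviral vector that enters only cells bearing its receptor tv-A, here driven by the Nestin promoter, and it delivered the growth factor PDGFB together with green fluorescent protein. Fluorescent cells that excluded the dye DAPI were sorted from tumours taken at symptoms or at 12 weeks. Replicates are labelled biological, without word on whether each holds 1 mouse or several, so a p-value reflects spread among arrays and possibly less than that among mice.

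NRF2, the product of Nfe2l2, is a transcription factor that KEAP1 holds at low protein levels until oxidants or electrophiles release it. It then binds antioxidant response elements and raises genes that import cystine, make glutathione, reduce thioredoxin and degrade haem. Its activity is set largely by protein stability, which an mRNA level does not measure. Metallothioneins are small cysteine-rich proteins that bind zinc and copper, and their genes are driven through metal response elements by the zinc sensor MTF1 and also by glucocorticoids and inflammatory signals. In the brain Mt1 and Mt2 are known above all from astrocytes and from reactive glia.

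The promoter windows of the members on which most of the results turn are shown here because they carry, or lack, the core letters to which these factors are known to bind. Sequences are from RefSeq on GRCm38.p6, written 5′ to 3′ on the strand of the gene, with capitals for matches to a core. Mt2 and Mt1 lie beside each other on chromosome 8, with annotated gene starts 6265 bases apart and 0 genes starting between them. For Mt2 the 250 bases before the start are given (chr8:94172368-94172617, plus strand), for Mt1 a stretch of 30 bases around its match (chr8:94179055-94179084, plus strand), for Nfe2l2 250 bases (chr2:75704664-75704913, minus strand) and for Nqo1 250 bases (chr8:107403206-107403455, minus strand).
Mt2: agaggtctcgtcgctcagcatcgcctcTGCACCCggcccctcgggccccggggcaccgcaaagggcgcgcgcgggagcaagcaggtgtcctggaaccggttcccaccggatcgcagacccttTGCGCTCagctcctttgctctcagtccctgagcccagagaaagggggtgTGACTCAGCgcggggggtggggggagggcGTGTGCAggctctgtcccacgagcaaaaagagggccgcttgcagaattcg
Mt1: cggtcccgctgTGCACACtggcgctccagg
Nfe2l2: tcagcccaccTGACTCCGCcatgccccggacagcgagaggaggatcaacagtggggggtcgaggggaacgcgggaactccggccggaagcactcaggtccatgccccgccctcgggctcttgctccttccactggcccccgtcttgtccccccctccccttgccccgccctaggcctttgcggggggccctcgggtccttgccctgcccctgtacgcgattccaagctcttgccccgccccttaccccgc
Nqo1: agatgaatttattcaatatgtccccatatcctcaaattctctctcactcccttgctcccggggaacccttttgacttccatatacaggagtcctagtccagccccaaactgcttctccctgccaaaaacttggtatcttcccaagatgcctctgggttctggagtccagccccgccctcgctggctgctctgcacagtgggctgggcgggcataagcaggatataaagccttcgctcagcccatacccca

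The antioxidant response element core was searched as TGACNNNGC and the metal response element core as TGCACNC or TGCGCNC, each on both strands. Of the 10 genes, 8 had a promoter entry, and the entries gave 10 windows of 250 bases. Gclc and Hmox1 had no entry and were not searched. The Mt2 window held 3 metal response cores, at 223, 128 and 50 bases before the start, and 1 antioxidant core at 79 bases, whose letters also contain the site of the AP-1 factors. The Mt1 window ends at a transcript start that lies 206 bases downstream of the annotated gene start, and it held 1 metal response core, 23 bases before that transcript start and so inside the annotated gene. Bases after that transcript start were not searched, so the count is for this window and not for the whole Mt1 promoter region. The Nfe2l2 window held 1 antioxidant core at 240 bases, and the Nqo1 window held neither core. Among the 8 genes searched an antioxidant core was found in Gclm, Txnrd1, Nfe2l2 and Mt2, and a metal response core in Gclm, Srxn1, Mt1 and Mt2. In Gclm the antioxidant core overlaps a metal response core. For comparison, 10.2% of 32851 mouse promoter windows of the same length held an antioxidant core, 21.4% held a metal response core and 5.17% held at least 2 metal response cores. A match describes letters only, and known enhancers of several of these genes lie outside such windows.

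All values are log2 expression values after robust multi-array averaging (RMA), so a difference of 1 is a doubling. Because probe sets differ in how brightly they bind, levels are compared between arrays for each gene and never between genes. Array medians lay between 6.63 and 6.72. Both heterozygous arrays differed most from the rest. They correlated with null and wild-type arrays at 0.976 to 0.987 across probe sets, against 0.990 to 0.995 between null and wild-type arrays. Heterozygous replicate 1 and null replicate 1 carried both Xist, at 11.16 and 12.73, and the Y-linked Eif2s3y, at 9.28 and 8.69. The other arrays carried 1 of the 2 transcripts near background, and results are given with and without both arrays where this matters. Ptprd averaged 9.50 ± 0.50 on null (SD, n = 3), 9.50 ± 0.11 on heterozygous (SD, n = 2) and 10.87 ± 0.02 on wild-type arrays (SD, n = 2). Its probe sets may lie outside the deleted part, so this does not check the null label. Olig2, Sox10 and Pdgfra, which mark oligodendrocyte progenitors and PDGF gliomas, were above the 30th percentile on every array.

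The 3 genotype means were estimated together in limma for 9243 genes, and a gene was called at a Benjamini-Hochberg adjusted p under 0.05. All 10 genes were among those tested. Slc7a11 came in through the 3 null arrays alone, because it lay below the 30th percentile of every heterozygous and wild-type array. The 3 comparisons share arrays and are given side by side.

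In heterozygous against wild-type tumour cells, Mt1, Mt2 and Nfe2l2 rose, the metallothioneins most. These were 3 of the 10 genes, all higher, against 10.1% of all genes tested (4.2% higher and 5.95% lower). At an unadjusted p under 0.05 there were 6 of the 10, against 29.9% of all genes. The groups did not overlap for 7 of the 10 (6 higher and 1 lower), against 61.3% of all genes (26.2% higher and 35.1% lower). The median difference of the 10 genes was 0.30, and that of all genes was -0.04. In null against wild-type cells 0 of the 10 genes and 0% of all genes were called by limma, with 2 of the 10 and 475 of all genes (5.14%) at an unadjusted p under 0.05. The groups did not overlap for 2 of the 10, both higher, against 21.7% of all genes (10.7% higher and 11% lower), and the median of the 10 was 0.07. Slc7a11 and Mt1 made up both counts, and Slc7a11 was tested through the null arrays alone. In null against heterozygous cells Mt1, Mt2 and Nfe2l2 fell and Nqo1 rose, which made 4 of the 10, against 8.96% of all genes tested (3.96% lower and 5% higher). At an unadjusted p under 0.05 there were 5 of the 10, against 28.5%, and the groups did not overlap for 8 of the 10 (3 higher and 5 lower), against 43.7% (25.7% higher and 17.9% lower). Slc7a11 was among the 3 higher ones. The median of the 10 was -0.19, against 0.04 for all genes. Without heterozygous replicate 1 and null replicate 1 no call held, but a lone heterozygous array remained. That fit therefore cannot tell whether the calls rested on these arrays. Its heterozygous-minus-wild-type differences were 3.01 (Mt2), 1.87 (Mt1) and 0.92 (Nfe2l2). Its null-minus-heterozygous differences were -2.99 (Mt2), -1.44 (Mt1), -1.01 (Nfe2l2) and 0.66 (Nqo1).

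**Figure D1:**
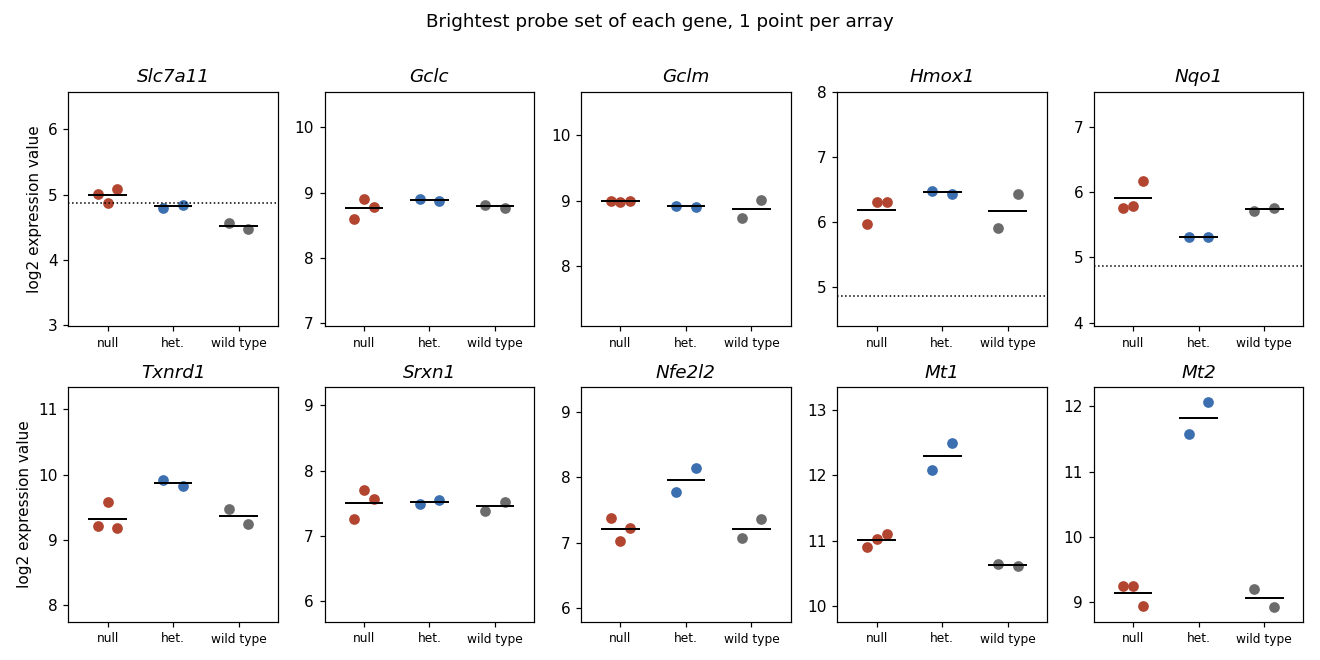
Log2 expression (RMA, vertical axis, each panel spanning 3.6 units) of the 10 genes on the 3 null, 2 heterozygous and 2 wild-type arrays, with a point for each array, a bar for the group mean and a dotted line at the mean 30th percentile of the arrays. Both heterozygous points of Mt1 and Mt2 lie above all other arrays, and all Slc7a11 points lie close to the dotted line.

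Mt2, whose protein buffers zinc and copper, read 9.24, 9.24 and 8.93 on the null arrays, 11.57 and 12.07 on the heterozygous arrays, and 9.20 and 8.92 on the wild-type arrays. Both heterozygous arrays were far above the other 5, and the null and wild-type ranges overlapped. Its heterozygous-minus-wild-type difference was 2.76 ± 0.20 (SE), a 6.78-fold rise with a limma adjusted p of 0.00216. Against heterozygous cells, null Mt2 fell by 2.68 on the log2 scale (SE 0.19, adjusted p = 0.00222), a 6.41-fold lower level in null cells. Between null and wild-type cells the difference was 0.08, with a 95% interval of -0.36 to 0.52. Leaving out heterozygous replicate 1 and null replicate 1, with a lone heterozygous array remaining, gave a heterozygous-minus-wild-type difference of 3.01. The corresponding null-minus-heterozygous difference was -2.99, and neither call held in that fit.

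Mt1, the neighbouring metallothionein, read 10.91, 11.02 and 11.10 on null, 12.08 and 12.50 on heterozygous, and 10.64 and 10.61 on wild-type arrays. The 3 groups did not overlap, with heterozygous arrays highest and wild-type arrays lowest. It rose by 1.67 ± 0.15 in heterozygous against wild-type cells (SE, limma adjusted p = 0.00403), which is 3.17-fold. Null cells had less Mt1 than heterozygous cells: it fell by 1.28 on the log2 scale (SE 0.14, adjusted p = 0.00697). In null against wild-type cells the difference was 0.38 ± 0.14 (SE), in the direction of higher null values on all 3 arrays, and it missed the threshold (adjusted p = 0.882). Without wild-type replicate 2 the heterozygous-minus-wild-type difference was 1.65, and its call was lost. Without heterozygous replicate 1 and null replicate 1 both calls were lost, at differences of 1.87 and -1.44. Each of these fits leaves a lone array in a group, so the lost calls do not mean smaller differences.

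A second, much dimmer Mt1 probe set did not show the rise on both heterozygous arrays. Its mean was 5.50, against 11.27 for the bright one and array 30th percentiles of 4.82 to 4.95. Whether so dim a probe set could show the rise was not tested. It read 5.20, 5.44 and 5.56 on null, 6.10 and 5.34 on heterozygous, and 5.48 and 5.37 on wild-type arrays, so only heterozygous replicate 1 was high. Its heterozygous-minus-wild-type difference was 0.30 ± 0.24 (SE, limma adjusted p = 0.524 in a fit of every probe set) and its null-minus-heterozygous difference was -0.32. The bright Mt1 probe set is of a type whose probes can match more than 1 transcript, so signal from Mt2 in it cannot be told apart. With shared-probe sets left out, the dim probe set alone stood for Mt1, and neither Mt1 call remained.

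**Figure D2:**
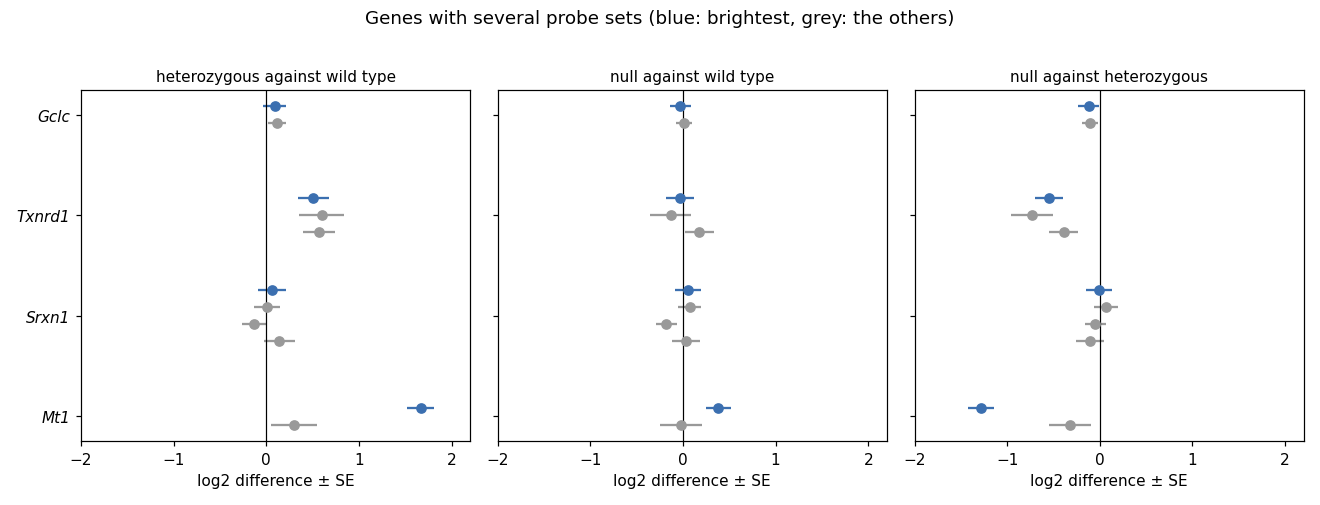
Log2 difference with its SE (horizontal axis) for the genes with several probe sets, in the 3 comparisons, with the brightest probe set in blue and the others in grey. The bright Mt1 probe set lies at 1.67 in heterozygous against wild type and the dim one at 0.30, while the 3 Txnrd1 probe sets lie together between 0.51 and 0.60.

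Of 19 tested genes for metallothioneins and zinc handling, 2 rose and 0 fell in heterozygous against wild-type cells, and both were Mt1 and Mt2 (10.5% of the list, against 10.1% of all genes tested). The other 17 had a median difference of 0.00 and 0 calls. Among them the zinc transporter genes Slc30a5 (-0.33), Slc39a1 (0.43) and Slc39a14 (0.42) did not pass the test. The following 3 genes were chosen after their values were seen. Mtf1, the zinc sensor, read 6.56, 6.56 and 6.55 on null, 6.56 and 6.56 on heterozygous, and 6.52 and 6.65 on wild-type arrays. Slc30a1, a zinc exporter that is an MTF1 target, differed by 0.00 in heterozygous against wild-type cells (SE 0.14). Mt3, a brain metallothionein, differed by 0.16 (SE 0.22, limma adjusted p = 0.658). In null against wild-type cells 0 of the 19 genes were called, and in null against heterozygous cells 0 rose and 2 fell, again Mt1 and Mt2.

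Nfe2l2, which encodes NRF2, read 7.37, 7.03 and 7.23 on null, 7.78 and 8.14 on heterozygous, and 7.07 and 7.37 on wild-type arrays. Both heterozygous arrays were above the other 5. The rise in heterozygous against wild-type cells was 0.75 ± 0.18 (SE, limma adjusted p = 0.0463), or 1.68-fold, and the fall in null against heterozygous cells was 0.75 on the log2 scale (SE 0.16, adjusted p = 0.0398). Null and wild-type arrays overlapped, and the 95% interval of their difference was -0.39 to 0.38. Both calls are near the threshold. Leaving out any 1 of the 7 arrays ended them, at adjusted p between 0.0527 and 0.188 for heterozygous against wild type and between 0.0598 and 0.117 for null against heterozygous.

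Among 15 tested NRF2 regulators, Nfe2l2 and Bach1, a repressor that competes with NRF2 at antioxidant elements, rose in heterozygous against wild-type cells and 0 fell, 13.3% of the list against 10.1% of all genes tested. Bach1 read 9.93, 9.82 and 9.73 on null, 10.40 and 10.45 on heterozygous, and 9.93 and 9.91 on wild-type arrays, and its rise was 0.51 ± 0.11 (SE, limma adjusted p = 0.0334). That call held in 2 of the 7 fits with 1 array left out, without null replicate 1 or 3, and had an adjusted p of up to 0.178 in the others. Crebbp, a coactivator of NRF2, differed by -0.51 and did not pass the test (adjusted p = 0.0599). Keap1, chosen after its values were seen, differed by 0.14 (SE 0.12), with an adjusted p of 0.475. Between null and heterozygous cells Nfe2l2 and Bach1 fell and 0 rose, and Bach1 differed by -0.60 ± 0.10 (SE, adjusted p = 0.0192), a call that ended without either heterozygous array or null replicate 3 (adjusted p up to 0.102).

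Nqo1, a quinone reductase often used as a readout of NRF2, read 5.76, 5.78 and 6.17 on null, 5.31 and 5.32 on heterozygous, and 5.71 and 5.76 on wild-type arrays. Both heterozygous arrays were the lowest of the 7, opposite to Nfe2l2. Compared with heterozygous cells, Nqo1 rose in null cells by 0.59 ± 0.14 (SE, limma adjusted p = 0.0483), a 1.51-fold difference, and leaving out any 1 array ended the call (adjusted p between 0.0584 and 0.234). The heterozygous-minus-wild-type difference of -0.42 ± 0.16 (SE) did not pass (adjusted p = 0.124). The null-minus-wild-type difference was 0.17, and those groups overlapped at 5.76.

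Txnrd1, the cytosolic thioredoxin reductase, read 9.21, 9.59 and 9.17 on null, 9.91 and 9.82 on heterozygous, and 9.47 and 9.25 on wild-type arrays. Both heterozygous arrays exceeded the others, yet the difference from wild type of 0.51 ± 0.17 (SE) missed the threshold (limma adjusted p = 0.0957), as did that of null from heterozygous, -0.54 ± 0.15 (SE, adjusted p = 0.0676). The 2 dimmer Txnrd1 probe sets differed by 0.60 and 0.57 in heterozygous against wild type and by -0.73 and -0.39 in null against heterozygous. When the 3 were averaged, both differences passed, at 0.56 (adjusted p = 0.0424) and -0.56 (adjusted p = 0.0365). Without null replicate 2 the null-minus-heterozygous difference also passed (-0.68, adjusted p = 0.0324).

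Srxn1, which reactivates oxidised peroxiredoxins, read 7.26, 7.70 and 7.56 on null, 7.49 and 7.54 on heterozygous, and 7.39 and 7.51 on wild-type arrays. The groups overlapped in every comparison, and its differences were 0.06, 0.06 and -0.01 for heterozygous against wild type, null against wild type and null against heterozygous. The 3 other Srxn1 probe sets had heterozygous-minus-wild-type differences of 0.01, -0.13 and 0.14.

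Hmox1, the inducible haem oxygenase, read 5.97, 6.30 and 6.30 on null, 6.48 and 6.44 on heterozygous, and 5.92 and 6.44 on wild-type arrays. Wild-type replicate 2 was as high as the heterozygous arrays, so the heterozygous and wild-type ranges overlapped. The heterozygous-minus-wild-type difference was 0.28, with a 95% interval of -0.18 to 0.75 (limma adjusted p = 0.379). Null values were all lower than heterozygous ones, by 0.27, with an interval of -0.69 to 0.15.

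**Figure D3:**
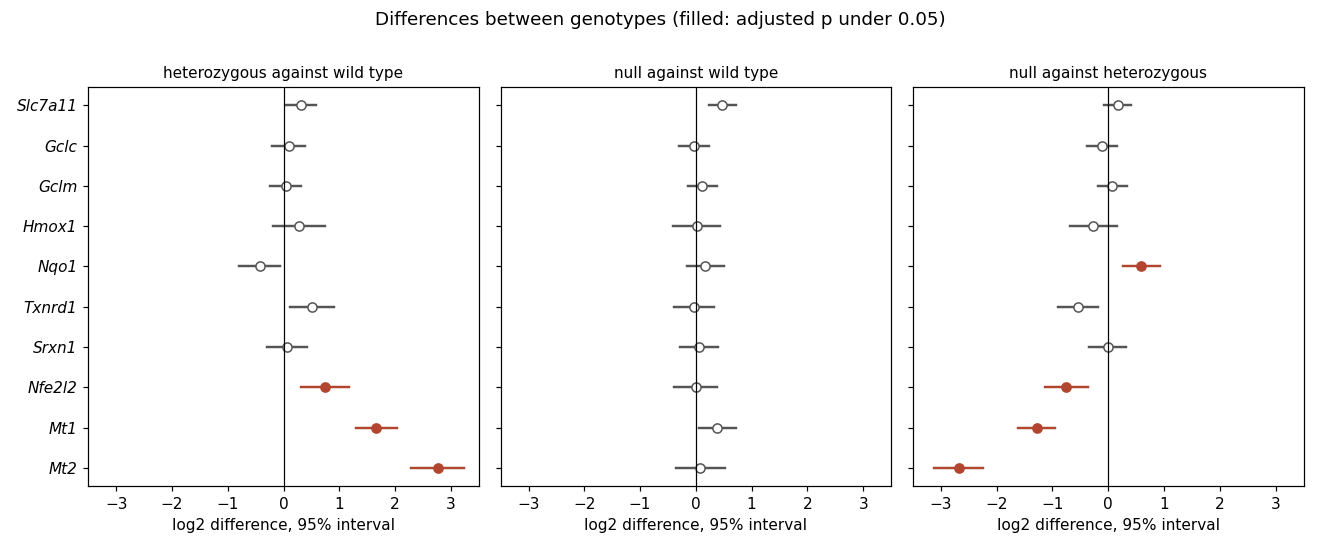
Log2 difference (horizontal axis, points with 95% intervals from the fit) of the 10 genes in heterozygous against wild type, null against wild type and null against heterozygous, with called genes filled. In null against wild type Slc7a11, which was tested through the null arrays alone, has the largest difference, 0.48, and 0 genes are called.

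Slc7a11, the cystine carrier of system xc-, read 5.01, 4.87 and 5.09 on null, 4.80 and 4.85 on heterozygous, and 4.56 and 4.47 on wild-type arrays. The 3 groups did not overlap, with null highest and wild type lowest, but all values lay near the 30th percentile of the arrays, 4.82 to 4.95, where signal is close to background. The gene was tested only because the 3 null arrays passed the filter. Its differences between null and other cells are therefore no independent evidence of a rise. The null-minus-wild-type difference was 0.48 ± 0.10 (SE), with a 95% interval of 0.23 to 0.72 and a limma adjusted p of 0.882. The heterozygous-minus-wild-type difference was 0.31 ± 0.11 (SE, adjusted p = 0.125). The null-minus-heterozygous difference was 0.17 ± 0.10 (SE, adjusted p = 0.340).

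Gclc, the catalytic subunit of glutamate-cysteine ligase, read 8.59, 8.90 and 8.78 on null, 8.89 and 8.86 on heterozygous, and 8.81 and 8.76 on wild-type arrays. Its heterozygous-minus-wild-type difference was 0.09, with a 95% interval of -0.20 to 0.39, and its other 2 differences were -0.03 and -0.12. Gclm, the modifier subunit, read 8.99, 8.98 and 9.00 on null, 8.92 and 8.91 on heterozygous, and 8.74 and 9.01 on wild-type arrays. Wild-type replicates spanned the range of the other 5 arrays, and the heterozygous-minus-wild-type difference of 0.04 had an interval of -0.24 to 0.32. Neither subunit passed the test in any comparison.

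In the wider pathways, 5 of 22 tested genes for glutathione and cystine rose in heterozygous against wild-type cells and 0 fell, 22.7% of the list against 10.1% of all genes tested. None of these was Slc7a11, Gclc or Gclm. Mgst1, a microsomal glutathione transferase, read 7.85, 6.76 and 7.26 on null, 8.82 and 8.53 on heterozygous, and 6.64 and 6.83 on wild-type arrays. Its rise was 1.94 ± 0.32 (SE, limma adjusted p = 0.0173), and the call ended without either wild-type array or heterozygous replicate 1 (adjusted p up to 0.109). The others were the glutathione peroxidases Gpx3 (0.98) and Gpx1 (0.51), the neutral amino acid carrier Slc1a5 (0.80) and, named outside the rule, the lipid peroxidase Gpx4 (0.47, adjusted p = 0.0485). With each of the 7 arrays left out in turn, Gpx3 passed in 4 fits, Gpx1 in 3, Slc1a5 in 2 and Gpx4 in 1. In null against wild-type cells 0 of the 22 were called. There Gpx4 had 0.41 and Chac1, which degrades glutathione, had 0.39. Compared with heterozygous cells, null cells differed in 4 genes: Gpx3 (-0.85), Mgst1 (-1.39) and Gpx1 (-0.38) fell and Mgst3 (0.69), another microsomal transferase, rose. With 1 array left out these calls held in 3 (Gpx3), 2 (Mgst1), 0 (Gpx1) and 1 (Mgst3) of 7 fits.

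Of 30 other tested NRF2 targets, 3 rose and 1 fell in heterozygous against wild-type cells, with a median difference of -0.05. These 4 are 13.3% of the list, against 10.1% of all genes tested. Gstm1, a cytosolic glutathione transferase, rose by 0.89, Sesn2, a stress-induced sestrin, by 0.79 and Txn1, thioredoxin, by 0.51, while Cat, catalase, fell by 0.61 on the log2 scale. With 1 array left out, Gstm1 passed in 5 of 7 fits, Cat in 4, Sesn2 in 1 and Txn1 in 1. In null against heterozygous cells Sesn2 (-0.87) and Gstm1 (-0.78) fell and Cat (0.46) and Cbr3, a carbonyl reductase (0.61), rose. The Cat and Cbr3 calls ended without any 1 of the 7 arrays, with adjusted p of 0.0518 or more for Cat and 0.0685 or more for Cbr3, while Gstm1 passed in 1 of 7 such fits and Sesn2 in 3. In the list for thioredoxin and peroxide removal 5 of 22 rose and 1 fell in heterozygous against wild-type cells. That was 27.3% of the list, against 10.1% of all genes tested. The called genes were Gpx1, Gpx4, Prdx4, a peroxiredoxin (0.60), Sesn2 and Txn1, all higher, and Cat, lower. All but Prdx4 are also in the lists for glutathione or for other NRF2 targets and were counted there. For null against heterozygous cells Prdx4 (-0.47), Sesn2 and Gpx1 fell and Cat rose. Prdx4 passed in 4 of 7 fits with 1 array left out for heterozygous against wild type and in 1 of 7 for null against heterozygous.

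For haem and iron handling, 0 of 23 tested genes rose and 1 fell in heterozygous against wild-type cells. That was 4.35% of the list, against 10.1% of all genes tested. The list median was -0.23, against -0.04 for all genes. The gene that fell was Cp, the ferroxidase ceruloplasmin, by 1.47 on the log2 scale (SE 0.23, limma adjusted p = 0.0159). It read 9.46, 9.40 and 9.72 on null, 7.96 and 8.69 on heterozygous, and 9.77 and 9.81 on wild-type arrays, and in null against heterozygous cells it rose by 1.20 (SE 0.21, adjusted p = 0.0237). With 1 array left out the fall held in 5 of 7 fits, ending without either wild-type array (adjusted p up to 0.115), and the rise in 2 of 7. Fech (-0.63) and Alas1 (-0.42), which act in haem synthesis, did not pass. In null against heterozygous cells the share called lay between 4.35% and 18.2% over the 6 lists, against 8.96% of all genes tested. In null against wild-type cells 0 genes of any of these 6 lists were called. Without heterozygous replicate 1 and null replicate 1 no call of the 6 lists held. A lone heterozygous array remained there, so that fit cannot tell whether the calls rested on these arrays.

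**Figure D4:**
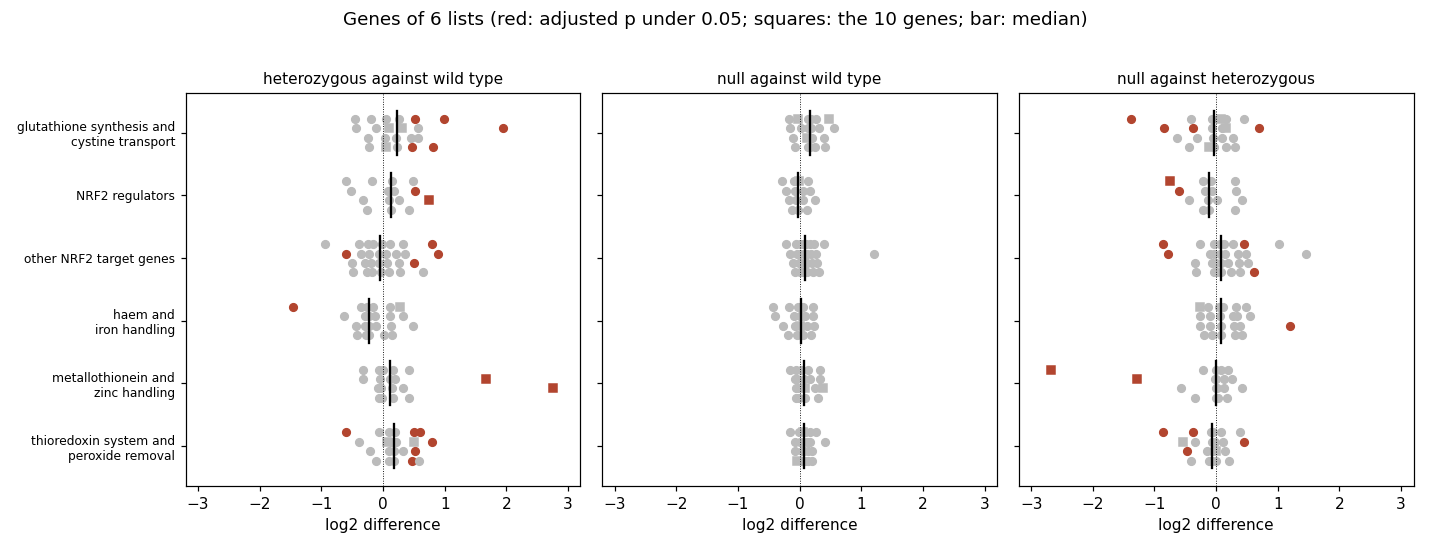
Log2 difference (horizontal axis) of each tested gene of the 6 pathway lists in the 3 comparisons, with called genes in red, the 10 genes as squares and the list median as a bar. Of the metallothionein and zinc genes, Mt1 and Mt2 lie apart from the other 17 in both comparisons with heterozygous cells.

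Markers of other cells moved with the same arrays. Of 22 tested microglia and macrophage markers (25 on the array, 26 listed), 16 rose and 0 fell in heterozygous against wild-type cells, with a median difference of 1.31. These were 72.7% of the list, against 4.2% of all genes tested that rose. In null against heterozygous cells 11 fell, with a median of -1.24. These were 50% of the list, against 3.96% of all genes tested that fell. Ptprc, Cd68 and Cd14 were tested only because both heterozygous arrays passed the filter, and without these 3 the counts were 13 of 19 and 8 of 19. The mean level of the 25 markers on the array, tested or not, lay between 5.26 and 5.70 on null, between 6.26 and 6.54 on heterozygous and between 5.10 and 5.37 on wild-type arrays. On all arrays of a group, 6 of these 25 markers were below the 30th percentile in null, 2 in heterozygous and 9 in wild-type cells. Cx3cr1, the fractalkine receptor of microglia, which passed the filter on all 7 arrays, rose by 0.78. Of 8 tested markers of oligodendrocyte progenitors and PDGF gliomas, 4 fell in heterozygous against wild-type cells (median -0.62). That was 50% of the list, against 5.95% of all genes tested that fell. Of 10 astrocyte markers 3 rose, among them the filament gene Gfap by 1.49, and S100b fell by 0.76 on the log2 scale. Of these 3, Aldh1l1 was tested only through the heterozygous arrays. In either direction 40% of the astrocyte list was called, against 10.1% of all genes tested. Without Aldh1l1, 2 of 9 rose and 1 fell. The sort kept GFP-positive cells, and the vector enters only cells with tv-A. Whether microglia, macrophages or astrocytes remained after the sort, or contribute to the Mt1, Mt2, Nfe2l2 or Mgst1 values, was not tested. In bulk RNA more cells of a type and more RNA per cell cannot be told apart.

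The genes whose log2 values followed each member most closely over the 7 arrays, 7 points that share the gap between heterozygous and other arrays, were as follows. Mt2 lay nearest to Tgm1 (Pearson r 0.998), Ptx3 (0.997) and Cd109 (0.994). Mt1 lay nearest to Syngr2 (0.995), Fgl2 (0.987) and Nupr1 (0.987). Nfe2l2 lay nearest to Tst, Sult1a1 and Hspb1, at 0.982, 0.981 and 0.972. Nqo1 lay nearest to Slc46a1 (0.996), Psenen (0.990) and Gstk1 (0.987), and Txnrd1 to Psrc1, Hnrnpab and Chaf1b (0.992 to 0.994). Slc7a11 lay nearest to Pnkd (0.988), Hyi (0.978) and Mier2 (0.966). Gclc lay nearest to Xrcc6 (0.986), Rrp12 (0.982) and Pvr (0.979), and Gclm to Gsta4 (0.937), Eci1 (0.935) and Mvd (0.933). Hmox1 lay nearest to Bad (0.953), Exosc5 (0.951) and Pycrl (0.951), and Srxn1 to Men1 (0.978), Gps1 (0.968) and Dtnb (0.965). None of these neighbours was another member of the 10 genes. They were picked as the highest r among all genes tested, and whether any is regulated together with a member was not tested. Among the members, Mt1 and Mt2 correlated at 0.965, and Nfe2l2 with them at 0.897 and 0.912. Nqo1 correlated with these 3 at -0.876 to -0.731.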

How the data were processed

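Total RNA of sorted tumour cells, 75 ng a sample, was labelled with a 3′-primed kit and measured on 7 Affymetrix arrays, per the labels' protocols. The deposited values are log2 expression values; RMA and Partek 6.6 are named in the submitters' processing notes. As RMA gives all arrays a common distribution, a shift of all genes cannot be seen. Of 22690 probe sets, 64 were controls, 20380 named 1 gene, 691 several and 1555 none here. The number of arrays limits the precision.

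Genes were represented by their probe set of highest mean and tested if it lay above the 30th percentile on at least 2 arrays (9243 genes tested, 3150 not). The 3 genotype means were estimated from all 7 arrays (limma 3.58.1, R 4.3.3, lmFit, contrasts, eBayes), with two-sided moderated tests and Benjamini-Hochberg adjustment over all genes tested. The script was tested on simulated data. The members and lists were chosen with earlier results of these data known. Named genes are the 10 members, up to 4 genes of smallest p per list and comparison, Ptprd, and the 3 genes nearest to each member by Pearson r. The replicate numbers do not pair the arrays, so no block was used. Alternatives covered the filter, the probe set rule, normalization, the test and leaving out arrays. Promoter letters were read from RefSeq on GRCm38.p6 for 8 of the 10 genes.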

Additional observations from a re-analysis of the deposited data

How the results depend on the processing

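With the replicate number as a block, 2 members were called in heterozygous against wild type, 0 in null against wild type and 1 in null against heterozygous (217, 0 and 25 genes in all). The numbers do not mark pairs: the deviations of same-numbered arrays correlated at -0.414 to 0.111, and 0 of 6 arrays correlated best with their own number. In heterozygous against wild type the count of 3 members became 1 without wild-type replicate 2 and 0 with heterozygous replicate 1 and null replicate 1 both left out, and leaving out 1 array gave 1 to 2. In null against heterozygous the count of 4 became 2 with every probe set fitted, with only the 2 groups compared, with array weights and with the 3′ minus 5′ covariate, 0 with ordinary least squares or with those 2 arrays left out, and 2 to 3 when 1 array was left out. Genes called in all ranged from 0 to 1188 in heterozygous against wild type (938 as reported), 0 to 1 in null against wild type (0) and 0 to 1083 in null against heterozygous (828). Mt2 kept its call in 20 of 21 alternatives in heterozygous against wild type and 19 of 21 in null against heterozygous, Mt1 in 18 and 17 of 21, Nfe2l2 in 7 of 21 in each, and Nqo1 in 5 of 20 in null against heterozygous. The 23 other called differences of listed genes kept their direction in all 479 alternative values and passed in 242. In 32 of 618 alternative values the sign of an uncalled member difference turned, and none of these passed the threshold. In null against wild type these were Txnrd1 0.0022 and Srxn1 -0.0048 (mean of probe sets), Mt1 -0.021 (shared-probe sets left out), Gclc 0.013, Txnrd1 0.0057 and Nfe2l2 0.037 (arrays centred), Gclc 0.018 and Nfe2l2 0.039 (quantile normalization), Hmox1 -0.043 and Txnrd1 0.038 (replicate block), and Gclc 0.053 and Txnrd1 0.022 (both arrays out). In null against heterozygous Srxn1 was 0.031 centred, 0.0089 with quantile normalization, 0.0060 with weights and 0.087 without both arrays. With 1 array left out, ranges that crossed 0 were -0.092 to 0.18 for Gclm in heterozygous against wild type and -0.10 to 0.11 for Srxn1 in null against heterozygous. In null against wild type they were -0.099 to 0.053 (Gclc), -0.017 to 0.25 (Gclm), -0.25 to 0.27 (Hmox1), -0.17 to 0.075 (Txnrd1), -0.038 to 0.18 (Srxn1), -0.15 to 0.15 (Nfe2l2) and -0.063 to 0.22 (Mt2). With a lone array in a group, that array was assumed to vary like the others. A filter at the 50th percentile left Slc7a11, Hmox1 and Nqo1 untested, and leaving out shared-probe sets left Txnrd1 untested. The cause of these changes was not tested.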
